A study of Mus musculus with 15 samples.

Results

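The genes described here supply amino acids and charged tRNA to the ribosome. They are 39 genes, chosen by symbol from a list of cytosolic tRNA synthetases, serine and one-carbon enzymes, enzymes of asparagine and proline synthesis, amino acid transporters and stress-induced regulators. All 39 were found among the 21669 genes with a symbol in the table, and 38 were among the 11299 genes expressed highly enough to be tested. The cystine transporter gene *Slc7a11* was the exception. The list holds many genes known as targets of the transcription factor ATF4, so ATF4 targets among them are a property of the choice.

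RNA was measured by sequencing in B cells of female C57BL/6J mice. Naive B cells (nB) were spleen cells depleted of CD43+ cells on a column and received neither the stimulation nor a drug. The other cells were cultured with lipopolysaccharide (LPS), a Toll-like receptor ligand that drives B cells to divide and secrete antibody, and with the cytokines Il2 and Il5, together with either DMSO as the vehicle or GSK343, an inhibitor of EZH2, the enzyme that places the repressive histone mark H3K27me3. Activated B cells (actB) were then sorted as B220+GL7+CD138- and plasmablasts (Pb) as CD138+. By the authors' account both were sorted after the same time in culture. Below, a rise or fall from actB to Pb is a difference between these cell types and not a change followed over time. A rise or fall at activation is a difference between actB with DMSO and nB. These groups also differ in culture, vehicle and sorting, which cannot be told apart from activation. For the plasmablasts with GSK343 the labels name Il6 where those of the other cultures name Il5, so in plasmablasts the drug and this cytokine cannot be told apart if the label is right.

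Each group had 3 libraries of 19421830 to 26307413 reads, but nB columns 1 and 2 differed by less than the sampling noise and were counted as 1 sample. This leaves 2 samples of nB and 3 of each cultured group. Values are RPKM (reads per kilobase of gene and 1000000 reads counted) as mean ± SD over these samples, which can be compared between genes, and they are shares of the reads, so that fewer cells of a type and less RNA per cell cannot be told apart. Fold changes are on the scale of log2(RPKM + 0.25), which understates the change of genes near 0, and are given ± their standard error. A gene is called changed at an adjusted p under 0.05 by limma, adjusted over all 11299 genes. In the cultured groups, replicate 2 stood apart from replicates 1 and 3, with a chi-square per degree of freedom of 7.64 to 29.7 against 3.58 to 6.07 between the other replicates. The labels do not say that replicates came from separate animals, so the p-values measure the spread between these samples.

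Marker genes matched the labels of the cultured cells. The summed RPKM of 5 plasmablast markers (*Sdc1*, *Prdm1*, *Xbp1*, *Irf4* and *Jchain*) was 3065 to 3215 in Pb with DMSO and 484.8 to 522.2 in actB with DMSO. In nB this sum was lower, at 214.4 to 231, but *Sdc1* was at 5.17 ± 0.0764 RPKM there against 0.665 ± 0.1209 in actB with DMSO. The nB libraries also held RNA of other cells, with 194.7 to 239.1 RPKM over 8 myeloid markers, 28.4 to 30.4 over 8 markers of T and NK cells and 30.6 to 138 over 3 erythroid markers, of which all but *Mpo* reached 1 RPKM. In actB with DMSO these sums were 4.14 to 5.44, 0.186 to 0.665 and 9.18 to 12.9, and *S100a8* and *S100a9* were at 0 in every cultured group. The part of these cells in the nB values of the genes below was not tested.

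A tRNA synthetase joins an amino acid to its tRNA, so that a full set of these enzymes is needed for any protein to be made. Serine is made from a glycolytic intermediate by PHGDH, PSAT1 and PSPH, and its conversion to glycine by SHMT1 in the cytosol or SHMT2 in mitochondria passes a one-carbon unit to folate, which MTHFD2 and MTHFD1L carry on to formate. When amino acids or charged tRNA run short, or when unfolded protein builds up, phosphorylation of eIF2α lowers translation in general and raises that of ATF4, which switches on many of these genes. Plasmablasts secrete antibody in bulk and are known for a large demand on protein synthesis.

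ATF4 binds, with a C/EBP partner, a composite site whose core reads TGATGNAAN, where N is any base. The stretches below are shown because they carry this core in the promoters of members whose levels are given later. A window of 250 bases before to 50 bases after the start was at hand for 30 of the 39 genes, and *Cars*, *Hars*, *Lars*, *Nars*, *Rars*, *Vars*, *Wars*, *Slc7a5* and *Slc1a5* had none. The core, on either strand, stood before the start of 7 of these 30 genes (23.3%), against 3.89% of the 27025 genes with a window and 2.43% of the 8964 tested genes with one. These 7 were *Pycr1*, *Chac1*, *Tars*, *Asns*, *Gars*, *Aars* and *Slc7a11*. As the list was drawn up partly from ATF4 targets, this share describes the list and was not tested. The sequences are from RefSeq on GRCm38.p6 and run 5′ to 3′ along the gene's strand, with the match in capitals, as TGATGNAAN or as its reverse complement.
Pycr1 (chr11:120643803-120643891, minus strand): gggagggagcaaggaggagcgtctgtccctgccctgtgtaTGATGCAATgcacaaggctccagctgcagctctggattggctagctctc
Chac1 (chr2:119351008-119351096, plus strand): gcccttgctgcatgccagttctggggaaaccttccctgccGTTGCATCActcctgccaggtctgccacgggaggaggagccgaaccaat
Tars (chr15:11399659-11399714, minus strand): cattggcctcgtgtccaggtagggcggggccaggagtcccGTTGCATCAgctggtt
Asns (chr6:7693210-7693272, minus strand): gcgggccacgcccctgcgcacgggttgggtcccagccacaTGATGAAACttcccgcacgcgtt
Gars (chr6:55037930-55038000, plus strand): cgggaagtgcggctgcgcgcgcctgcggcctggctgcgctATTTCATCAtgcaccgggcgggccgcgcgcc
Aars (chr8:111033689-111033777, plus strand): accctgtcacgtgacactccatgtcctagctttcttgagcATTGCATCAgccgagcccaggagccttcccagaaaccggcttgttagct

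The match began 103 bases before the start in *Pycr1*, 194 in *Chac1*, 16 in *Tars*, 23 in *Asns*, 31 in *Gars* and 113 in *Aars*. In *Asns*, which encodes asparagine synthetase, it reads TGATGAAAC. *Slc7a11* held the core once on each strand, 66 and 48 bases before its start.

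The first question is how far these genes differed in share of the reads between naive B cells, activated B cells and plasmablasts. The 39 genes together took 3632 ± 88.8 reads per 1000000 (RPM) in nB, 7940 ± 901 in actB with DMSO and 10244 ± 384 in Pb with DMSO, or 0.363%, 0.794% and 1.02% of all reads. The synthetases made up most of each sum, with 2356 ± 49.0, 4797 ± 467 and 5692 ± 261 RPM. Serine and one-carbon enzymes went from 291 ± 13.1 to 1363 ± 242 and 1513 ± 110 RPM, and asparagine and proline synthesis from 52.2 ± 1.46 to 312 ± 44.4 and 557 ± 6.98 RPM. The sums of the 3 groups of cells did not overlap for all 39 genes, nor for synthetases, and for serine and one-carbon enzymes those of actB (1087 to 1536) and Pb (1386 to 1578) did.

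**Figure D1:**
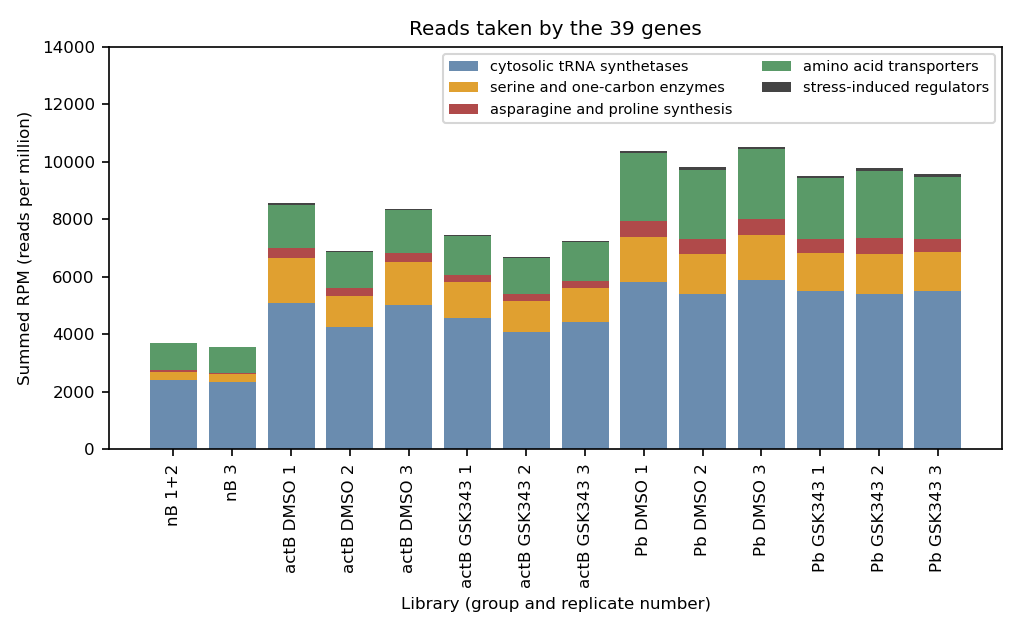
Summed RPM (vertical axis) of the 39 genes in each of the 14 libraries (horizontal axis), stacked by kind of gene. The nB libraries stand at 3569 and 3695, the actB libraries with DMSO between 6906 and 8553 with replicate 2 lowest, and the Pb libraries with DMSO between 9808 and 10531.

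At activation, 35 of the 38 genes tested rose and none fell. Over all genes tested, 40.9% were called higher and 36.3% lower in actB with DMSO than in nB. The median log2 fold change was 1.44 for the 38 genes and 0.05 for all genes. No gene of the list below 0 reached an unadjusted p under 0.05 by limma or by edgeR. *Asns*, *Chac1*, *Slc1a4* and *Psat1* had the largest fold changes. The genes not called were *Vars*, *Slc1a5* and *Slc38a2*, which were the 3 most abundant members in nB already, at 123 ± 4.39, 109 ± 4.60 and 72.1 ± 0.167 RPKM.

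*Asns* (mm9, chr6:7625169-7643254) makes asparagine from aspartate and glutamine. It stood at 0.608 and 0.839 RPKM in the nB samples and at 69.2, 50.4 and 57.7 in actB with DMSO. The gene went from close to no expression, at 27 and 37 reads, to the level of the median synthetase (61.9 RPKM in actB), a log2 fold change of 5.93 ± 0.18 (limma adjusted p = 2.06e-11). *Chac1* (chr2:119176965-119180117), which encodes an enzyme that degrades glutathione and is a known late target of the stress response, had 4 and 2 reads in nB and 376, 212 and 335 in actB with DMSO. Its RPKM was 0.111 and 0.0555 in nB and 10.1, 5.60 and 8.80 in actB. With so few reads in nB its fold depends on the pseudocount, and the ratio of the pooled RPM was 98.1, with an exact 95% interval of 44.9 to 268 that covers counting error only.

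*Slc1a4* encodes ASCT1, a carrier of alanine, serine, cysteine and threonine. Its RPKM was 0.265 and 0.412 in nB and 9.16, 6.47 and 8.35 in actB with DMSO (log2 fold change 3.80 ± 0.14, limma adjusted p = 1.26e-10). *Psat1*, the aminotransferase of serine synthesis, was at 10.6 and 9.95 RPKM in nB and at 129, 87.8 and 119 in actB (3.39 ± 0.13). In each of these genes the lowest actB library, replicate 2, was far above both nB samples.

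Of the 20 cytosolic synthetases, 19 rose at activation, by a log2 fold change of 0.51 (*Farsa*) to 1.86 (*Aars*), with a median of 1.19. *Yars*, *Gars* and *Cars* followed *Aars* at 1.74, 1.72 and 1.58. Then came *Nars*, *Tars*, *Iars*, *Eprs*, *Rars* and *Lars* at 1.47, 1.45, 1.44, 1.34, 1.31 and 1.25, and *Dars*, *Kars* and *Hars* at 1.12, 1.12 and 1.06. *Wars*, *Mars*, *Farsb*, *Sars*, *Qars* and *Farsa* rose by less than 1, at 0.91, 0.87, 0.83, 0.72, 0.62 and 0.51. The valyl enzyme *Vars* was apart from them. It was the most abundant synthetase transcript in nB and had the same mean in actB, 123 ± 5.23 RPKM, with a 95% interval of the log2 fold change of -0.14 to 0.13.

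All 7 serine and one-carbon genes rose. After *Psat1* the largest changes were those of *Mthfd2* (2.86 ± 0.14), *Shmt1* (2.37 ± 0.16) and *Shmt2* (2.04 ± 0.14), while *Psph* (1.81), *Phgdh* (1.73) and *Mthfd1l* (1.59) changed less. *Mthfd2* and *Mthfd1l* encode successive steps of the mitochondrial pathway and moved by different amounts, so that the ratio of *Mthfd1l* to *Mthfd2* RPKM went from 1.26 ± 0.117 in nB to 0.520 ± 0.0708 in actB. Both proline genes rose, *Aldh18a1*, which starts the pathway from glutamate, by 1.82 ± 0.10 and *Pycr1*, which ends it, by 3.03 ± 0.19.

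The transporters were less uniform. *Slc7a5* and *Slc3a2* encode the light and heavy chains of the large neutral amino acid carrier LAT1, and *Slc7a5* rose by 2.86 ± 0.14 while *Slc3a2* rose by 0.42 ± 0.12 (limma adjusted p = 0.00626), a call that was lost without nB replicate 3, which leaves 1 nB sample, assumed to vary like the other groups. The ratio of *Slc7a5* to *Slc3a2* RPKM was 0.257 ± 0.00272 in nB and 1.43 ± 0.0644 in actB. The cationic carrier gene *Slc7a1* rose by 1.23 ± 0.10. *Slc1a5*, a glutamine carrier, had a log2 fold change of 0.13 (95% interval 0.00 to 0.26) and *Slc38a2* one of 0.11, which was called when the replicate number was used as a block (limma adjusted p = 0.0212). *Sesn2*, an intracellular leucine sensor induced by stress, rose by 1.27 ± 0.12 from 1.85 ± 0.318 RPKM.

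**Figure D2:**
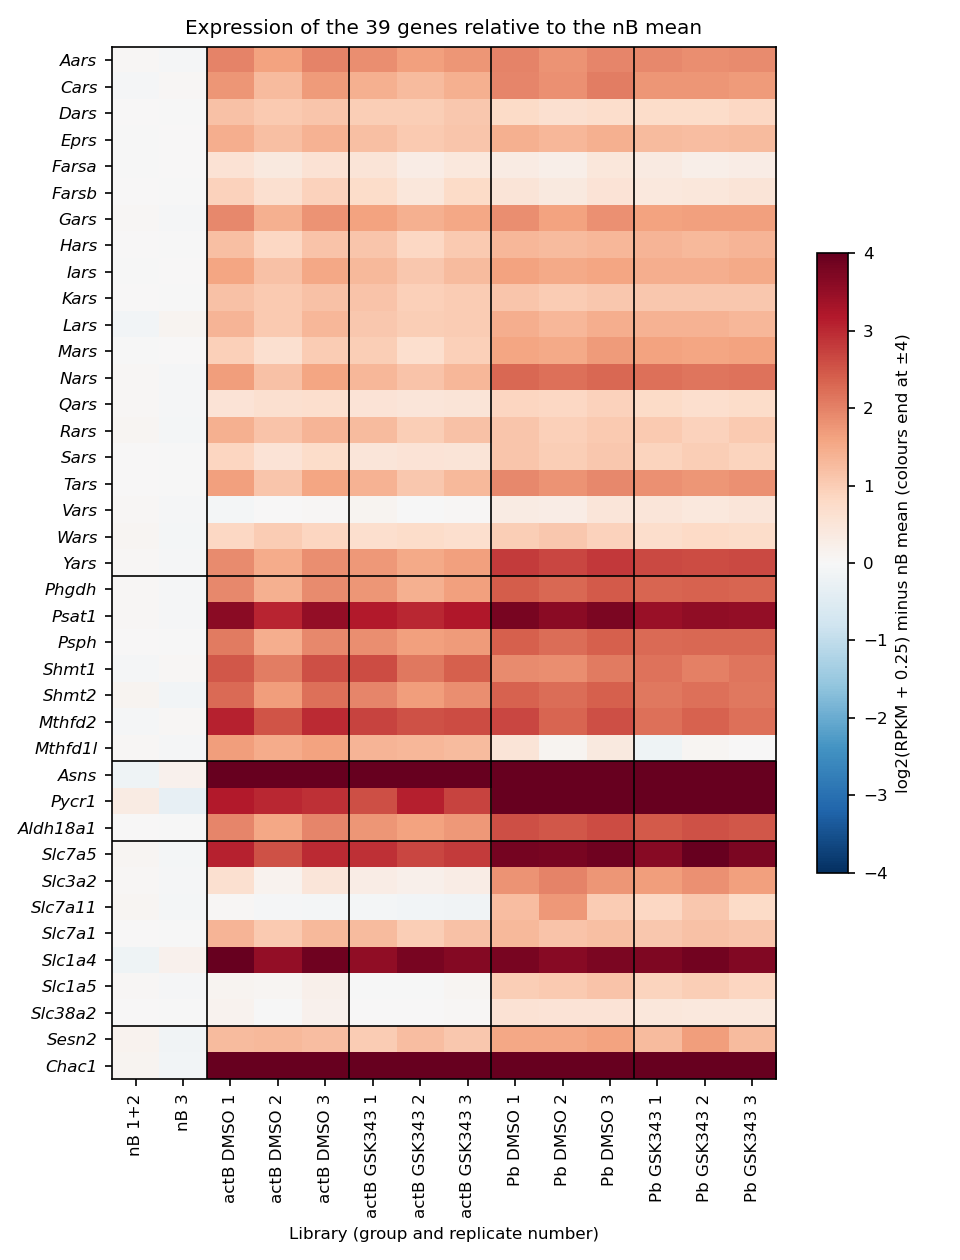
log2(RPKM + 0.25) of each of the 39 genes (rows, in their groups from synthetases at the top to stress-induced regulators at the bottom) minus its nB mean, in each library (columns), with colours that end at 4 above or below. *Asns* and *Chac1* are at the end of the scale in every cultured library, *Pycr1* reaches it in Pb, and *Vars* stays close to its nB level in actB.

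From actB to Pb, both with DMSO, the genes divided. Of the 38, 21 were higher in Pb, 6 were lower and 11 were not called, and the median log2 fold change was 0.29 against -0.12 for all genes. Over all genes 27.3% were called higher and 42.4% lower. The largest rises were those of *Pycr1*, *Chac1*, *Slc3a2* and *Yars*, and *Mthfd1l* fell furthest. Scaling the libraries to equal medians moved the median of all genes from -0.12 to 0.00 and the share of calls that were higher from 39.2% to 49.4%. The calls of *Pycr1*, *Chac1*, *Slc3a2*, *Yars* and *Mthfd1l* held under each alternative tried.

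*Pycr1* (chr11:120497026-120505083) was at 5.69, 5.10 and 4.81 RPKM in actB with DMSO and at 26.6, 30.6 and 26.5 in Pb with DMSO, after 0.589 and 0.274 in nB. It was higher in actB than in nB and higher again in Pb than in actB, there by 2.37 ± 0.17 (limma adjusted p = 7.93e-08). *Aldh18a1* rose by 0.74 ± 0.09 and *Asns* by 0.42 ± 0.16, to 82.4, 76.4 and 77.0 RPKM in Pb with DMSO. The *Asns* call (limma adjusted p = 0.0326) was lost when any one of 5 of the 6 libraries compared was left out, actB_DMSO replicate 1 being the exception.

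*Chac1* rose further, to 22.1, 21.2 and 29.6 RPKM in Pb with DMSO (1.57 ± 0.20, limma adjusted p = 1.38e-05), and all 3 values are above the highest of actB. *Sesn2* was at 5.91 ± 0.152 RPKM in Pb and 4.78 ± 0.146 in actB, and its call (limma adjusted p = 0.0321) was lost without actB_DMSO replicate 1 or 3 or without any one Pb library. Relative to nB, the pooled *Chac1* RPM of Pb was 293 times as high, with an exact 95% interval of 134 to 798 for counting error.

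*Slc3a2* (chr19:8781372-8797859) was at 39.2 and 36.4 RPKM in nB, at 58.9, 41.6 and 52.4 in actB with DMSO and at 133, 150 and 130 in Pb with DMSO. Its larger difference was between Pb and actB (1.44 ± 0.11, limma adjusted p = 1.03e-07), whereas that of its partner was between actB and nB. *Slc7a5* was at 10.2 and 9.29 RPKM in nB, then at 83.2, 57.4 and 78.8 and, in Pb, at 142, 140 and 148 (0.99 ± 0.13). The ratio of *Slc7a5* to *Slc3a2* RPKM was thus 1.05 ± 0.104 in Pb, where the 3 libraries (0.933 to 1.14) lie below those of actB (1.38 to 1.5). *Slc1a5* and *Slc38a2*, which had not been called at activation, rose by 0.93 ± 0.06 and 0.46 ± 0.05, and *Slc7a1* and *Slc1a4* were not called, at -0.03 ± 0.09 and -0.07 ± 0.13.

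*Slc7a11* encodes the cystine carrier that pairs with the same heavy chain. It was at 0.165 and 0.124 RPKM in nB, at 0.153, 0.132 and 0.124 in actB with DMSO and at 0.674, 1.05 and 0.553 in Pb with DMSO. With GSK343 it was at 0.125, 0.115 and 0.109 in actB and at 0.446, 0.580 and 0.415 in Pb. These are 29 to 242 reads per library, and every Pb library was above every nB and actB library. The gene was left out of the limma test because its RPKM reached 1 in a single library. By edgeR on the recovered reads, which tested all 39 genes, it was higher in Pb than in actB (2.54, edgeR adjusted p = 7.2e-07) and than in nB (2.41, edgeR adjusted p = 2.89e-06), and it was not called with GSK343 (edgeR adjusted p = 0.615 in actB and 0.0623 in Pb).

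Among the synthetases 9 rose, 3 fell and 8 were not called. *Yars* (chr4:128867004-128896851), the tyrosyl enzyme, was at 16.4 and 15.1 RPKM in nB, at 58.9, 44.6 and 57.7 in actB with DMSO and at 111, 103 and 114 in Pb with DMSO (1.03 ± 0.09, limma adjusted p = 8.39e-07). *Nars* and *Mars* rose by 0.79 ± 0.10 and 0.73 ± 0.10, *Tars*, *Cars*, *Vars* and *Sars* by 0.44, 0.36, 0.36 and 0.32, and *Hars* and *Qars* by 0.25 each. *Nars* was the most abundant synthetase transcript in actB (138 ± 24.1 RPKM) and in Pb (237 ± 9.81 RPKM), both with DMSO. The *Cars* call was lost without Pb_DMSO replicate 3, and that of *Hars* without actB_DMSO replicate 2 or Pb_DMSO replicate 1 or 3.

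*Dars*, *Farsb* and *Rars* were lower in Pb. *Dars*, the aspartyl enzyme, was at 34.4 and 33.9 RPKM in nB, at 78.0, 71.6 and 74.2 in actB with DMSO and at 58.7, 53.9 and 56.2 in Pb with DMSO (fell by 0.40 ± 0.05, limma adjusted p = 1.31e-05). The related class II enzymes for asparagine and aspartate thus parted, and the ratio of *Nars* to *Dars* RPKM was 1.44 ± 0.0300 in nB, 1.85 ± 0.258 in actB and 4.21 ± 0.0643 in Pb. *Farsb*, which encodes the beta subunit of the phenylalanyl enzyme, was at 27.8 and 27.2 in nB, at 52.5, 42.6 and 52.5 in actB and at 39.7, 36.3 and 40.2 in Pb (fell by 0.34 ± 0.09, limma adjusted p = 0.00509). *Farsa*, for the alpha subunit of the same enzyme, had a change of -0.17 ± 0.07 that was called with the replicate block (limma adjusted p = 0.00483), and the ratio of *Farsb* to *Farsa* was 2.36 ± 0.106 in actB and 2.10 ± 0.0750 in Pb. *Rars* fell by 0.28 ± 0.09, a call lost without actB_DMSO replicate 1 or Pb_DMSO replicate 2. *Lars* (0.16 ± 0.08) was also called with the block (limma adjusted p = 0.0391), and *Aars*, *Eprs*, *Gars*, *Iars*, *Kars* and *Wars* lay between -0.06 and 0.13 and were not called.

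Serine synthesis and one-carbon transfer went different ways. *Phgdh*, *Psph* and *Psat1*, the genes of the route to serine, rose by 0.66 ± 0.12, 0.52 ± 0.12 and 0.33 ± 0.11, and *Psat1* reached 147, 127 and 143 RPKM in Pb with DMSO. Its call was lost without actB_DMSO replicate 2 or Pb_DMSO replicate 1 or 3. The genes that carry the one-carbon unit on were lower or not called. *Mthfd1l* (chr10:6179460-6373423) was at 12.6 and 11.9 RPKM in nB, at 39.5, 34.4 and 37.9 in actB with DMSO and at 17.5, 13.1 and 16.0 in Pb with DMSO (fell by 1.26 ± 0.10, limma adjusted p = 1.65e-07). Most of the difference between actB and nB was thus absent in Pb, and the 3 Pb values are well below the actB values.

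*Shmt1*, the cytosolic enzyme, was at 5.16 and 5.63 RPKM in nB, at 31.1, 23.2 and 33.5 in actB with DMSO and at 20.6, 20.2 and 23.3 in Pb with DMSO (fell by 0.43 ± 0.14, limma adjusted p = 0.0148). The highest Pb library was just above the lowest actB library, and the call was lost without actB_DMSO replicate 1 or 3. *Shmt2*, its mitochondrial counterpart, was at 166 ± 10.3 RPKM in Pb and 138 ± 28.9 in actB (0.28 ± 0.13), which was called with the replicate block (limma adjusted p = 0.0230). The ratio of *Shmt2* to *Shmt1* was 4.72 ± 0.331 in actB and 7.78 ± 0.428 in Pb. *Mthfd2* fell by 0.34 ± 0.13, a call lost without actB_DMSO replicate 1 or 3 or Pb_DMSO replicate 2, and the ratio of *Mthfd1l* to *Mthfd2* went down to 0.270 ± 0.00595.

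**Figure D3:**
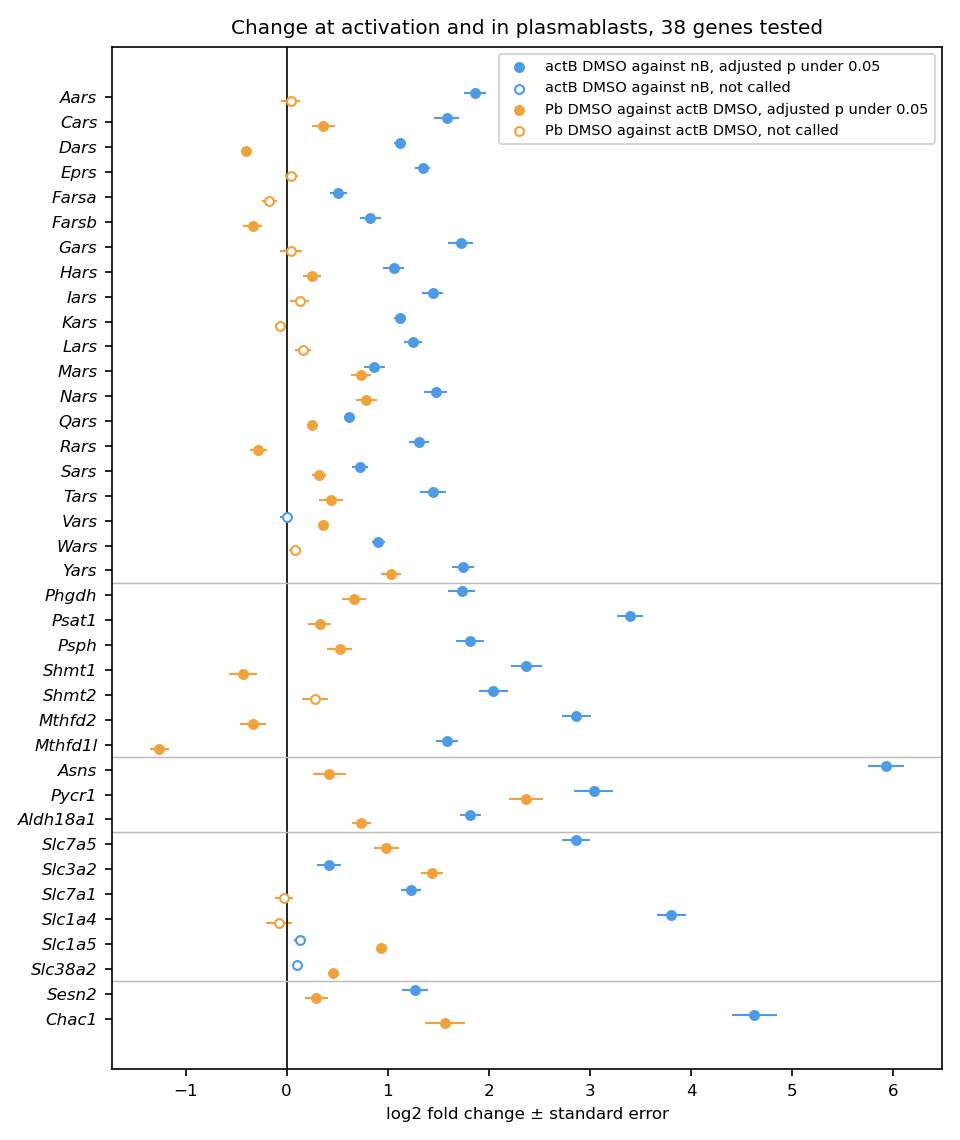
log2 fold change (horizontal axis, bars show the standard error) of the 38 genes tested, for actB with DMSO against nB and for Pb with DMSO against actB with DMSO, filled where the limma adjusted p is under 0.05. Nearly all points of the first comparison lie right of 0, at up to 5.93 for *Asns*, while those of the second lie on both sides, from -1.26 for *Mthfd1l* to 2.37 for *Pycr1*.

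In Pb with DMSO against nB, all 38 genes tested were higher and none was lower. The median was 1.68 for the list and -0.02 for all genes, of which 39.5% were called higher and 41.1% lower. No gene of the list had a negative fold change by limma or edgeR. *Asns*, *Chac1*, *Pycr1* and *Slc7a5* had the largest changes, with 6.35 ± 0.18 for *Asns*, 5.40 ± 0.19 for *Pycr1* and 3.85 ± 0.14 for *Slc7a5*. *Mthfd1l* had the smallest, 0.33 ± 0.11, and its call was lost without Pb_DMSO replicate 1 or without nB replicate 3, when nB has 1 sample that is assumed to vary like the other groups. This comparison shares its samples with both earlier ones.

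The second question is what inhibition of EZH2 does to these genes. In actB, *Asns*, *Eprs* and *Wars* were lower with GSK343, and none of the 38 was called higher. In Pb, *Asns*, *Mthfd1l*, *Wars* and *Qars* were lower and again none was called higher. Over all genes 2.16% were called lower and 8.2% higher in actB, and 5% lower and 7.9% higher in Pb. The median log2 fold change of the list was -0.15 in actB, with 0.03 for all genes, and -0.08 in Pb, with 0.00 for all genes. The point estimate was negative for 36 of the 38 genes in actB and for 31 in Pb, and most of these small differences did not pass the test. None of the positive estimates reached an unadjusted p under 0.05 by limma or edgeR. Of the 38 genes, 9 in actB (23.7%) and 6 in Pb (15.8%) had a negative estimate at an unadjusted p under 0.05 by limma, as did 7.4% and 11.8% of all genes. By edgeR these were 19 (48.7%) and 9 (23.1%) of the 39 genes, against 11.1% and 12.7% of all genes.

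*Asns* changed most in both cell types. In actB it was at 69.2, 50.4 and 57.7 RPKM with DMSO and at 27.4, 37.3 and 30.9 with GSK343, where every library with GSK343 lay below every library with DMSO. The log2 fold change was -0.88 ± 0.16 (0.542 times, limma adjusted p = 0.00504), and the call held under each alternative tried and without any one library. In Pb it was at 82.4, 76.4 and 77.0 RPKM with DMSO and at 46.6, 66.8 and 46.7 with GSK343. The groups again did not overlap, with a change of -0.58 ± 0.16 (0.670 times, limma adjusted p = 0.0339), and here the call was lost when any one of 5 of the 6 libraries was left out, Pb_GSK343 replicate 2 being the exception.

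*Wars*, the tryptophanyl enzyme, was the other gene called in both. It was at 24.1 and 21.6 RPKM in nB. In actB it was at 41.2, 46.1 and 42.0 RPKM with DMSO and at 36.8, 38.1 and 36.4 with GSK343 (-0.21 ± 0.06, limma adjusted p = 0.0422). In Pb it was at 45.7, 48.2 and 43.1 with DMSO and at 37.2, 39.6 and 38.5 with GSK343 (-0.25 ± 0.06, limma adjusted p = 0.0188). The values did not overlap in either cell type, and the fold changes come to 0.863 and 0.843 times. The actB call was lost without any one library, and the Pb call without Pb_DMSO replicate 1 or 2 or Pb_GSK343 replicate 1 or 3.

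*Eprs*, the enzyme for glutamate and proline, was at 21.8 and 22.2 RPKM in nB and at 59.5, 55.0 and 59.3 in Pb with DMSO. In actB it was at 60.5, 50.5 and 58.0 RPKM with DMSO and at 50.8, 46.0 and 47.5 with GSK343 (-0.22 ± 0.06, limma adjusted p = 0.0449), where the lowest DMSO library, replicate 2, lay just below the highest with GSK343. *Mthfd1l* in Pb was at 17.5, 13.1 and 16.0 RPKM with DMSO and at 10.9, 12.9 and 12.5 with GSK343 (-0.35 ± 0.10, limma adjusted p = 0.0359). *Qars*, the glutaminyl enzyme, was at 39.8 and 37.5 RPKM in nB and at 56.9, 60.1 and 61.6 in actB with DMSO. In Pb it was at 70.4, 69.0 and 72.9 with DMSO and at 65.7, 61.9 and 64.0 with GSK343 (-0.15 ± 0.04, limma adjusted p = 0.0496). The *Eprs* call was lost without actB_DMSO replicate 1 or 3 or actB_GSK343 replicate 2 or 3, that of *Mthfd1l* without Pb_DMSO replicate 1 or 3 or Pb_GSK343 replicate 1 or 3, and that of *Qars* without any one Pb library.

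**Figure D4:**
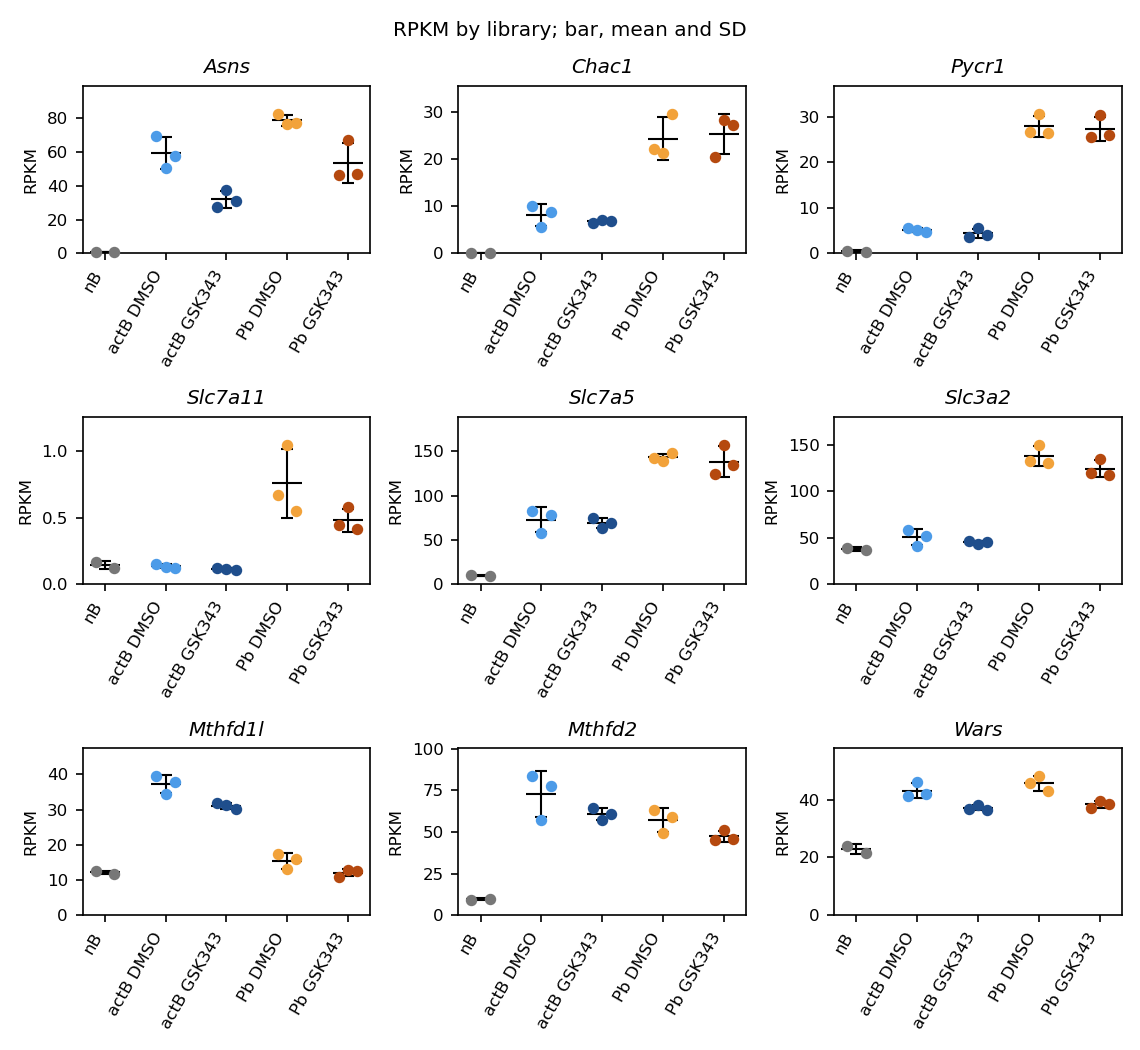
RPKM (vertical axes, from 0) of 9 genes in every library, by group, with the mean and SD as bars. *Asns* and *Wars* were lower under GSK343 in both cell types without overlap, *Pycr1* and *Slc3a2* are highest in Pb, and *Mthfd1l* and *Mthfd2* are highest in actB with DMSO.

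How many genes pass depends on replicate 2. Since libraries of the same replicate number tended to deviate together, each library with GSK343 can be set against the DMSO library of its number. In actB, 35 of 38 genes were lower with GSK343 in replicate 1 and 37 in replicate 3, but 22 in replicate 2, and the share of all genes that were lower was 44.9%, 43.6% and 40.5% in that order. In Pb, 33 were lower in replicate 1 and 33 in replicate 3, but 17 in replicate 2, with 44.6%, 53.5% and 46.5% of all genes. *Asns* and *Wars* were lower with GSK343 in each of these 6 pairs, and so were *Eprs*, *Iars*, *Nars*, *Qars*, *Tars*, *Psat1*, *Mthfd1l* and *Slc1a5*. The share of all genes that were lower in all 6 pairs was not computed, so these names do not set the list apart from other genes.

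The DMSO library of replicate 2 in actB was itself the lowest of its group for 33 of the 38 genes, while 42.8% of all genes were lowest in it. Without that library, 18 genes were called lower with GSK343 in actB, where 2.99% of all genes were, with *Psat1*, *Asns*, *Iars*, *Eprs* and *Nars* first by p. Removing a DMSO library that is low for most of these genes raises their DMSO mean, and the part of this in the added calls was not tested. In actB with GSK343, replicate 2 was the lowest for 28 of the 38 genes (40.4% of all genes). In Pb it was the lowest for 33 with DMSO (42.5%) and for 15 with GSK343 (43.7%). Without replicate 2 in every cultured group, which was tried after the data were seen, 19 genes were called lower in actB, where 4.97% of all genes were, and 10 in Pb, where 7.52% were. The 10 in Pb were *Mthfd2*, *Mthfd1l*, *Asns*, *Psat1*, *Cars*, *Shmt2*, *Gars*, *Wars*, *Sars* and *Eprs*.

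With the replicate number as a block, limma called 8 genes lower in actB (*Asns*, *Eprs*, *Wars*, *Rars*, *Iars*, *Lars*, *Sars* and *Farsb*), where 6.71% of all genes were lower. In Pb it called 7 (*Wars*, *Mthfd1l*, *Asns*, *Qars*, *Eprs*, *Slc38a2* and *Slc1a5*), where 10.9% were. Every library with GSK343 lay below every library with DMSO for 6 genes in actB (*Qars*, *Sars*, *Wars*, *Mthfd1l*, *Asns* and *Slc1a5*), against 7.52% of all genes. In Pb this held for 12 (*Cars*, *Eprs*, *Iars*, *Qars*, *Wars*, *Yars*, *Psat1*, *Shmt2*, *Mthfd1l*, *Asns*, *Slc1a5* and *Slc38a2*), against 15.3% of all genes.

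The smallest changes lay close to 0. In actB the fold changes of *Mars*, *Shmt1* and *Vars* were 0.00, 0.01 and 0.05, and in Pb those of *Kars*, *Aars* and *Mars* were 0.01, -0.01 and -0.01. *Pycr1* was at 3.68, 5.50 and 4.04 RPKM in actB with GSK343 and at 25.6, 30.4 and 26.1 in Pb, and *Chac1* at 6.54, 7.08 and 6.91 and at 20.5, 28.4 and 27.1. *Slc3a2* was at 46.3, 43.3 and 46.0 in actB with GSK343 and at 120, 135 and 118 in Pb. None of these 3 genes was called in either cell type, but *Slc3a2* was called lower in actB without actB_DMSO replicate 2 (-0.30, limma adjusted p = 0.0344) and with replicate 2 left out of every cultured group (-0.27, limma adjusted p = 0.0188). Of the genes whose promoter sequence is printed above, *Asns* was called in both cell types with GSK343. The fold changes of *Tars* (-0.19 in actB and -0.08 in Pb), *Gars* (-0.19 and -0.13) and *Aars* (-0.11 and -0.01) were not called, but with replicate 2 left out of every cultured group all 3 were called lower in actB and *Gars* also in Pb. Differences between these genes were not tested.

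The effect of GSK343 was not shown to differ between Pb and actB for any gene of the list. No gene was called for the difference, by limma or by edgeR, and each tool gave 1 gene with an unadjusted p under 0.05. By limma this was *Dars* (adjusted p = 0.551), its fold change being -0.10 in actB and 0.05 in Pb. Over all genes, 0.0974% were called with a more positive effect in Pb and 0.15% with a more negative one. For *Asns* the effect in Pb was 0.31 higher, with a 95% interval of -0.19 to 0.80, and for *Wars* it was 0.03 lower, with one of -0.22 to 0.15.

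Marker genes moved with GSK343 as well. The summed RPKM of the plasmablast markers was 549 to 669 in actB with GSK343, above the 484.8 to 522.2 with DMSO, and *Itgam*, counted here among the myeloid markers, was at 9.95 ± 3.12 against 4.27 ± 0.664 RPKM, while *S100a8* and *S100a9* were at 0 and *Lyz2* at 0.772 ± 0.395. In Pb the plasmablast markers summed to 3129 to 3396 RPKM with GSK343 and 3065 to 3215 with DMSO, which overlap. Of these, *Sdc1*, which encodes CD138, was at 55.3 ± 3.09 against 29.7 ± 0.826, *Irf4* at 313 ± 11.6 against 372 ± 17.0 and *Prdm1* at 117 ± 5.88 against 121 ± 4.96. The B cell markers *Pax5* and *Ms4a1* were at 13.8 ± 4.65 and 39.8 ± 6.99 RPKM in Pb with GSK343 against 29.1 ± 3.36 and 60.9 ± 1.75 with DMSO, and *Cd79a* and *Cd79b* overlapped between the groups. Their part in the values of the genes above was not tested.

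**Figure D5:**
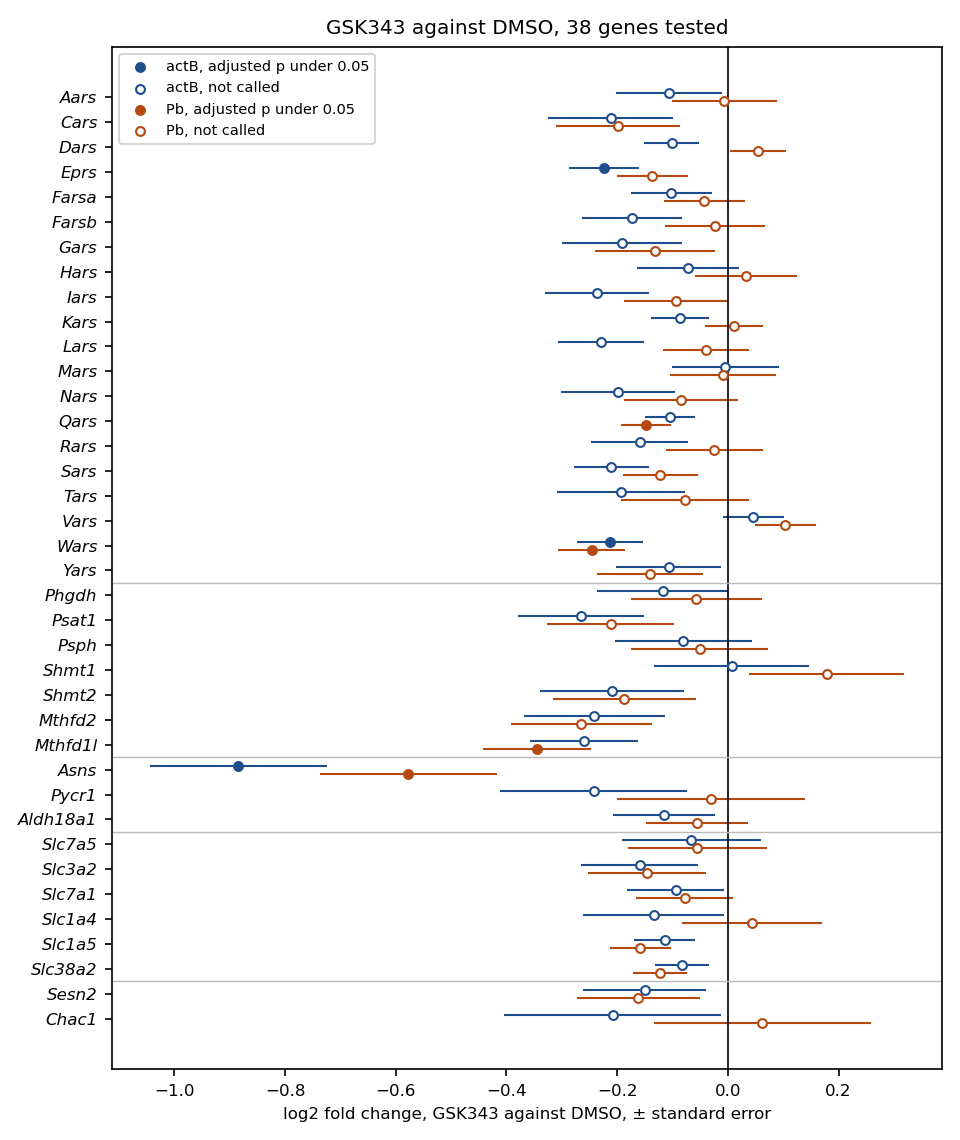
log2 fold change with GSK343 against DMSO (horizontal axis, bars show the standard error) of the 38 genes tested in actB and in Pb, filled where the limma adjusted p is under 0.05. Most points lie left of 0, *Asns* lies furthest left at -0.88 in actB and -0.58 in Pb, and *Vars* and *Shmt1* lie right of 0 in both.

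Other genes of the same pathways, from lists written from general knowledge, give the setting. Of 17 tested regulators and targets of the integrated stress response, 9 rose and 5 fell at activation, and 10 rose and 5 fell from actB to Pb. These counts and those of the lists below stand beside 40.9% of all genes higher and 36.3% lower at activation, and 27.3% higher and 42.4% lower from actB to Pb. *Atf4* itself was at 156 ± 0.756 RPKM in nB, 183 ± 28.2 in actB and 270 ± 16.3 in Pb with DMSO, and was called from actB to Pb (0.57 ± 0.09, limma adjusted p = 0.000156) but not at activation (0.22 ± 0.11, limma adjusted p = 0.0765). *Ddit3*, which encodes the pro-apoptotic factor CHOP, fell by 0.98 ± 0.14 at activation and rose by 0.32 ± 0.13 in Pb, and *Trib3*, a pseudokinase that restrains ATF4, rose by 3.24 ± 0.27 and fell by 0.85 ± 0.24. *Cth*, the last enzyme of cysteine synthesis, rose by 5.04 ± 0.21 at activation, and *Ppp1r15a*, which reverses eIF2α phosphorylation, and *Cebpb* fell by 3.14 and 1.61. From actB to Pb, *Nupr1* and *Cebpb* rose by 1.68 and 1.37 and *Atf3* fell by 2.81.

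With GSK343, 2 of the 17 stress-response genes were lower in actB, *Cth* (-1.04 ± 0.19, limma adjusted p = 0.00457) and *Ppp1r15a* (-0.44 ± 0.09), 1 in Pb, *Cebpg* (-0.26 ± 0.07), and none was higher. Over all genes 2.16% were called lower and 8.2% higher in actB, and 5% lower and 7.9% higher in Pb. These shares also stand beside the calls with GSK343 in the lists below. The median log2 fold change of the 17 genes was -0.15 in actB and -0.21 in Pb, against 0.03 and 0.00 for all genes. Of the 17, 3 in actB and 1 in Pb lay above the median of all genes. In actB *Cth* was at 12 ± 1.87 RPKM in the DMSO cultures and at 5.81 ± 1.60 in those with the drug, a fold change close to that of *Asns*. *Atf4* was at 169 ± 12 RPKM in actB and 257 ± 9.64 in Pb with GSK343 and was not called (-0.11 ± 0.09 and -0.07 ± 0.09), nor were *Trib3* (-0.78 ± 0.24 and -0.56 ± 0.24) and *Ddit3* (-0.17 ± 0.13 and -0.07 ± 0.13). For *Trib3* the limma adjusted p was 0.0589 in actB and 0.152 in Pb.

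Of the 17 mitochondrial tRNA synthetases, 7 rose and 4 fell at activation, against 40.9% and 36.3% of all genes, with a median log2 fold change of 0.17. From actB to Pb 2 rose and 10 fell, against 27.3% and 42.4%. *Yars2* rose by 0.84 at activation while *Ears2* fell by 0.75, and in Pb *Cars2* rose by 0.86 while *Wars2* fell by 1.04. None was called with GSK343 in either cell type. The 3 scaffold genes of the multisynthetase complex, which holds several cytosolic synthetases together, all rose at activation (*Aimp2* 1.31, *Eef1e1* 0.82 and *Aimp1* 0.62), and in Pb *Eef1e1* and *Aimp1* fell by 0.57 and 0.28. None of the 3 was called with GSK343.

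Among 13 tested genes of folate, methionine and glycine metabolism outside the list, 10 rose and 2 fell at activation (40.9% and 36.3% of all genes), with *Tyms* (3.47) and *Aldh1l2* (2.69) among them, and 2 rose and 8 fell in Pb (27.3% and 42.4% of all genes), led by *Aldh1l2* (1.99), *Mthfd1* (-0.91) and *Gcsh* (-0.75). *Aldh1l2* is a mitochondrial enzyme that oxidizes the one-carbon unit, and it was close to 0 in nB, at 0.122 ± 0.0131 RPKM. It was at 2.15 ± 0.292 in actB and 9.37 ± 2.25 in Pb with DMSO, and at 1.09 ± 0.383 and 4.65 ± 1.08 with GSK343, lower in both (-0.88 ± 0.22 and -0.97 ± 0.22, limma adjusted p = 0.0241 and 0.0128). No other gene of these 13 was called with GSK343.

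Among 14 tested genes of other amino acid synthesis, 11 rose and 2 fell at activation (40.9% and 36.3% of all genes), where *Bcat1* (4.42), *Gpt2* (2.59) and *Got1* (1.78) changed most, and 7 rose and 4 fell in Pb (27.3% and 42.4% of all genes), where *Glul*, the glutamine synthetase, fell by 1.61 and *Gpt2* rose by 1.10. *Got1*, which encodes the cytosolic aspartate aminotransferase, was lower with GSK343 in actB (-0.37 ± 0.06) and in Pb (-0.23 ± 0.06), and *Glul* was higher in Pb (0.20 ± 0.06). Among 12 other tested transporter genes, 6 rose and 3 fell at activation (*Slc6a9* 2.98, *Slc1a1* 1.19 and *Slc7a8* -1.01), and 7 rose and 1 fell in Pb (*Slc7a8* 2.35, *Slc1a1* 1.87 and *Slc7a7* 1.42), against the same shares of all genes. *Slc1a1*, a carrier of glutamate, aspartate and cysteine, was at 0.339 ± 0.0361 RPKM in actB and 1.90 ± 0.144 in Pb with DMSO and at 0.778 ± 0.0950 and 5.24 ± 0.790 with GSK343 (0.80 ± 0.12 and 1.34 ± 0.12, limma adjusted p = 0.00149 and 0.0001). *Slc36a1* was higher with GSK343 too (0.46 and 0.27) and *Slc38a1* was lower in actB (-0.35).

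Reads of some genes cannot be told from those of a neighbour. The exons of *Aars*, *Cars*, *Farsb*, *Hars*, *Mars*, *Vars*, *Yars*, *Shmt1* and *Shmt2* overlap another gene on the other strand, that of *Mars* being *Ddit3* and that of *Hars* its mitochondrial counterpart *Hars2*, and whether counting used the strand is not stated. *Mars* rose and *Ddit3* fell at activation, and both rose from actB to Pb (0.73 and 0.32).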

How the data were processed

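Total RNA was made into polyA-selected libraries with the KAPA stranded mRNA-seq kit. The authors mapped reads to mm9 with TopHat2, counted those overlapping exons of each Entrez gene and deposited RPM (reads per 1000000 reads counted) with gene lengths. The table is named for RPKM. RPKM was computed here as RPM per kilobase. All values were whole multiples of 1 read within 0.05 reads, from which reads were recovered. A total of 3 reads equals 0.114 to 0.154 RPM, and 92 genes without symbol (at most 0.0905% of reads) were left out.

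The 39 genes, their groups and the other lists (stress response, mitochondrial synthetases, complex scaffolds, one-carbon metabolism, amino acid synthesis, transport and sensing, and cell markers) were chosen with earlier results of these data known. The markers were 5 of plasmablasts, 8 myeloid, 8 of T and NK cells and 3 erythroid. Tests covered the 11299 genes that reached 1 RPKM in 3 or more of the 15 columns. All groups, 14 samples in all, entered 1 fit by limma 3.58.1 (R 4.3.3, eBayes with trend) on log2(RPKM + 0.25), with Benjamini-Hochberg adjustment. The difference of the GSK343 effects was an interaction term. Per-library values are given for the 4 largest called rises and falls of each comparison, for every member called with GSK343 and for members not tested, and pathway lists by their 3 largest called changes with *Atf4*, *Ddit3* and *Trib3*. edgeR 4.0.16 (quasi-likelihood, TMM or RLE) on the recovered reads of 11146 genes was an alternative. The labels number replicates alike in each group. Deviations from group means correlated at 0.158 to 0.713 in all 18 pairs of cultured libraries with the same number and at -0.603 to 0.37 between numbers. The ranges overlap, and actB_DMSO replicate 3 correlated at 0.3701 with actB_GSK343 replicate 1 and at 0.3555 with actB_GSK343 replicate 3. The numbers were taken to pair the samples, and the fit was also run with the number as a block. Other alternatives were median scaling, quantile normalization, pseudocounts of 1 and 0.05, no filter, an RPKM of at least 3, no trend, the compared groups alone, all 15 columns and each library left out. Added after the data were seen were replicate 2 left out of every cultured group and edgeR with the block. Results for some genes are not reported here. The fit was tested on simulated data. Gene positions are GENCODE vM1 on mm9, 1-based, and promoter windows are RefSeq on GRCm38.p6.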

Additional observations from a re-analysis of the deposited data

How the results depend on the processing

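The number of listed genes called was within 1.5 times its value under every alternative for the 3 comparisons of stages without GSK343. Leaving out 1 library gave 34 to 36 for actB against nB, 23 to 25 for Pb against actB and 37 to 38 for Pb against nB. The difference of the GSK343 effects gave 0 under every alternative, and no fold change of a called gene reversed. The counts with GSK343 depended on the settings, and every call was lower. In actB, where 3 genes were called, there were 5 with median scaling and with edgeR under TMM or RLE, 1 without a filter, without the trend or with the compared groups alone, 8 with the replicate block, 19 without replicate 2 in every cultured group, 18 with edgeR and the block, and 1 to 18 when 1 library was left out (18 without actB_DMSO replicate 2, and 1 without actB_DMSO replicate 1 or 3 or actB_GSK343 replicate 2 or 3). In Pb, where 4 were called, there was 1 without a filter or with the compared groups alone, 7 with the block, 10 without replicate 2, 9 with edgeR and the block, and 0 to 3 when 1 library was left out (0 without Pb_DMSO replicate 1 or Pb_GSK343 replicate 1 or 3, and 1 without Pb_DMSO replicate 2 or 3). With the compared groups alone fewer samples give the spread, and without a filter more genes are adjusted for. The cause of each of these shifts was not tested. The number of all genes called lower moved too. Of 11299 genes, 244 were lower in actB and 565 in Pb. With the block these were 758 and 1227, without replicate 2 they were 561 and 850, and with the compared groups alone 47 and 457. With edgeR and the block 1329 and 1428 of 11146 genes were lower. In actB, median scaling gave 370, no trend 222 and edgeR 425 (TMM) or 423 (RLE). In actB and Pb, no filter gave 202 and 521 of 18752 genes, and leaving out 1 library 104 to 341 and 218 to 519. Of all genes called with GSK343 in actB, 79.1% were higher, against 65.1% with median scaling and 61.6% with quantile normalization. The block changed no call of a listed gene between stages other than those of *Slc38a2*, *Farsa*, *Lars* and *Shmt2*.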

Other observations

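Amino acid sensing offers a group not described above. Of 15 tested genes of the pathways that report amino acids to the kinase mTORC1, 3 rose and 9 fell from nB to actB with DMSO, where 40.9% of all genes rose and 36.3% fell, and 5 rose and 6 fell from actB to Pb, where 27.3% rose and 42.4% fell. The sestrin genes *Sesn1* and *Sesn3*, paralogs of the listed gene *Sesn2*, were lower in actB than in nB and lower again in Pb. They were at 45.5 ± 0.481 and 44.2 ± 0.103 RPKM in nB, 17.7 ± 2.56 and 20.9 ± 2.96 in actB and 9.15 ± 0.958 and 10.7 ± 0.836 in Pb with DMSO, while *Sesn2* rose in both comparisons. *Eif4ebp1*, an inhibitor of cap-dependent translation and an ATF4 target, rose by 1.51 ± 0.12 at activation. *Rragd*, one of the Rag GTPases, was lower by 0.93 in actB than in nB and higher by 1.02 in Pb than in actB, at a level of at most 1.12 RPKM. With GSK343, *Rraga*, another Rag GTPase, was lower in actB (-0.40 ± 0.04, limma adjusted p = 0.000154) and in Pb (-0.18 ± 0.04, limma adjusted p = 0.00981). *Eif4ebp1* was lower in actB (-0.38 ± 0.11) and *Depdc5* in Pb (-0.25), *Sesn3* was higher in actB (0.31 ± 0.09), and *Rragd* and *Lamtor1* were higher in Pb (0.79 ± 0.11 and 0.28).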
